A study of Mus musculus with 48 samples.

Results

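Interferon-stimulated genes are described here in the lungs of 48 mice. The 41 genes were chosen by symbol as genes known to respond to interferons, with no threshold on their measured values. The choice was made with earlier results of these data known. All 41 were found among the 47561 rows of the expression table, of which 27106 were above 0 in at least 1 lung. The mice were males and females of the inbred strains C3H/HeN (C3H) and C57Bl/6 (C57B), giving the groups C3HM, C57BM, C3HF and C57BF. Each mouse was injected with saline or with 25 mg/kg of aurothioglucose (ATG), a gold-containing inhibitor of the enzyme thioredoxin reductase, and then kept in room air or in hyperoxia (oxygen above 95%) for 96 h. There were 3 mice in each of the 16 combinations, each with its own number from 1 to 48, so that the mice are not paired. The paper, which covers unexposed lungs of both strains, names C57Bl/6N, whereas the description of the series names the J substrain and gives ATG to all mice, so strain and saline groups are taken from the sample labels. No group was given an interferon or an infection by the labels, and whole lung RNA was sequenced, so fewer cells of a type and less RNA per cell cannot be told apart.

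Interferons are secreted proteins that bind receptors on most cells of the lung. Type I and type III interferons act through receptor-bound JAK1 and TYK2 kinases on transcription factors that include STAT2 and IRF9, which bind the interferon-stimulated response element in promoters, whereas type II interferon has a receptor of its own. The genes switched on include RNA and DNA sensors, antiviral enzymes, the ubiquitin-like modifier ISG15, and GTPases that attack the vacuoles of intracellular microbes. In healthy tissue many of these genes are expressed at a low, steady level without infection.

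The values are FPKM, in which the sequenced fragments of a gene are scaled to its length and to all mapped fragments of the library, so that levels of different genes can be compared per length. The sum of FPKM was between 510933 and 748290 per mouse. Scgb1a1, the secretory protein of club cells, made up 10.4% to 30.2% of this sum in room air and 1.2% to 7.17% in hyperoxia, which moves the share left for all other genes. The lung markers Sftpc (3000 to 42300 FPKM), Ager (612 to 3470 FPKM) and Pecam1 (138 to 314 FPKM) were present in every library. Genes of chromosomes X, Y and M are listed at 0 in all mice, so that the labelled sex was not checked. The depth of the libraries is unknown. The C3HM mice 1 and 3 hold the highest and the lowest share of Scgb1a1 among the saline mice in room air (30.2% and 10.4% of the sum), and counts that rest on them are also given without them.

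Promoter sequences show which members carry a core of the interferon-stimulated response element. RefSeq promoters of GRCm38.p6, from 250 bases before to 50 bases after each start site, were found for 31 of the 41 members, and the motif GAAANNGAA was searched on both strands, where the reverse strand reads TTCNNTTTC and neighbouring matches may overlap. The motif was found for 19 of the 31 members (61.3%), and for 9.76% of all 27025 genes with a promoter sequence. It lay upstream of the start for 15 members. The stretches of 30 bases below are in capitals where the motif matches, and all lie upstream of the RefSeq start. They belong to some of these 15 members, taken from those whose values are given in the following paragraphs.
Gbp2 (chr3:142620594-142620623, plus strand): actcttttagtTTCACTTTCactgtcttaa
Gbp7 (chr3:142530273-142530302, plus strand): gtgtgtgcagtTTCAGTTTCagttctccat
Isg15 (chr4:156200866-156200895, minus strand): aaaagGAAACCGAAACAGAAaatagctctg
Oas1a (chr5:120907526-120907555, minus strand): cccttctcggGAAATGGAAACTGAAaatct
Bst2 (chr8:71537578-71537607, minus strand): tccagGAAAATGAAACTGAAaggctgcagt
Igtp (chr11:58199511-58199540, plus strand): ttctaggaactGAAACTGAAagctgttcgg
Rsad2 (chr12:26456553-26456582, minus strand): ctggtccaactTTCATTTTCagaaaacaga

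In Isg15, Oas1a and Bst2 neighbouring matches overlap in 1 longer run, whereas Gbp2, Gbp7, Igtp and Rsad2 show 1 match in this stretch. For Isg15 a further match, centred at position -74 from the start site, begins 1 base before the stretch, so that all of it but that base falls in the stretch, where it is not marked. The 12 members whose window holds no match were Cmpk2, Dtx3l, Herc6, Ifi35, Ifit2, Irf1, Irf7, Irf9, Isg20, Oasl1, Oasl2 and Xaf1. No promoter sequence was at hand for Oas2, Mx1, Mx2, Usp18, Dhx58, Rtp4, Zbp1, Parp9, Parp14 and Iigp1.

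The members lie on 15 chromosomes, and 18 of them fall in 7 groups of neighbours no more than 500 kb apart. In GENCODE M21 (GRCm38, also known as mm10), Gbp7, Gbp3 and Gbp2 follow each other at chr3:142530342-142638008, and Ifit2, Ifit3 and Ifit1 at chr19:34550694-34650009. Rsad2 (chr12:26442746-26456452, minus strand) and Cmpk2 (chr12:26469204-26479837, plus strand) point away from each other. The other groups are Oas2, Oas3 and Oas1a, Oasl2 and Oasl1, Parp14, Dtx3l and Parp9, and Mx1 and Mx2, of which Mx2 is annotated as a polymorphic pseudogene and the other 40 members as protein coding. Reads could have been divided between near-identical genes for 9 members that share over 10% of their 30-base sequences with other genes. These shares were 69.5% for Oas1a, mostly with Oas1g, 62.5% for Ifit3, mostly with Ifit3b, and 10.8% to 16.2% for Ifit1, Isg15, Herc6, Gbp7, Igtp, Rtp4 and Trim30a, so that their values are less certain. Exons of 10 members, among them Irf1, Irf7, Parp9 and Dtx3l, overlap a gene on the opposite strand, and the sources used here differ on whether the libraries kept the strand, so reads of such pairs cannot be told apart. Exons of 6 members, among them Irf9, Igtp and Gbp7, overlap a gene on the same strand.

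In saline mice in room air, the members were at very different levels. The highest was Bst2, the membrane tether that holds back budding viruses, at 114 ± 17.4 FPKM in C3H and 157 ± 17.3 FPKM in C57B (SD, n = 6 each). Isg20, an exonuclease that degrades viral RNA, and Irf1, a transcription factor of the type II response, followed at 54.3 to 77.9 FPKM and 52 to 52.2 FPKM in the strain means. Ifit3, an RNA-binding antiviral protein, was at 34.5 ± 6.81 FPKM in C3H and 36 ± 7.75 FPKM in C57B. At the low end were Oas3 (0.67 ± 0.236 and 1.66 ± 0.398 FPKM) and Mx1 (0.526 ± 0.287 and 1.36 ± 0.954 FPKM). A gene was tested where 3 or more of the mice compared had an FPKM of 1 or more, and among these 12 mice Mx1 passed only through the 3 C57BM mice. For Mx1 the ranges of the strains overlapped, whereas for Oas3 only 1 C57B mouse fell within the C3H range.

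The strains were compared in the 12 saline mice in room air. Most members that differed were lower in C3H than C57B: 15 of 41 were lower and 1 was higher at an adjusted p under 0.05 in limma, which is what "called" stands for here. Over all 15546 genes tested, 7.87% were called lower and 3.92% higher. The median difference in log2(FPKM + 1), C3H minus C57B, was -0.37 over the members and -0.10 over all genes tested. The called members were spread over the roles, with 4 of 6 guanylate binding proteins and immunity-related GTPases (Gbp2, Igtp, Iigp1 and Irgm1), 2 of 3 genes of the ISG15 pathway (Usp18 and Herc6), 2 of 5 sensors (Zbp1 and Dhx58), and none of the 3 Ifit genes. The other called members that were lower were Irf9, Oas3, Cmpk2, Bst2, Parp9, Trim30a and Samd9l. Oas3 reached the FPKM of 1 needed for testing in 5 C57B mice and 1 C3H mouse, and so passed the filter through the group in which it is higher.

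Zbp1, a sensor of Z-form nucleic acids that can start necroptosis, showed the largest of these differences. It was between 3.49 and 7.41 FPKM in C3H, with a median of 5.4, and between 6.89 and 17.7 FPKM in C57B, with a median of 11.3. Only the lowest C57B mouse, a C57BF mouse, fell within the C3H range, and the difference was -0.96 ± 0.16 (SE, adjusted p = 0.00173). Gbp2, a GTPase recruited to pathogen vacuoles, was between 11.3 and 26.3 FPKM in C3H and between 31.2 and 36.5 FPKM in C57B, with no overlap (-0.72 ± 0.16, adjusted p = 0.0126). Igtp, an immunity-related GTPase, was likewise lower in every C3H mouse (9.39 to 18.5 FPKM, median 13.1) than in any C57B mouse (20.5 to 23.9 FPKM, median 23.3), at -0.74 ± 0.13 (adjusted p = 0.00231). Trim30a, a negative regulator of Toll-like receptor signalling, differed by -0.68 ± 0.15 (adjusted p = 0.0101) and Dhx58, which encodes the sensor LGP2, by -0.68 ± 0.16 (adjusted p = 0.0194).

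Rsad2, which encodes the antiviral enzyme viperin, was the member called higher in C3H. The C3HM mice were at 12.2, 8.46 and 30.9 FPKM and the C3HF mice at 10, 16.5 and 10.3 FPKM. The C57BM mice were at 12, 10.9 and 10.7 FPKM and the C57BF mice at 4.4, 3.89 and 4.63 FPKM. The C57BM mice thus overlapped the C3H mice, and the C57BF mice lay below all of them. The difference was 0.84 ± 0.25 (adjusted p = 0.0485), and it was not called without any 1 of 10 mice (1, 13 to 15, 25 to 27 and 37 to 39, with adjusted p up to 0.119). Its neighbour Cmpk2, a mitochondrial nucleotide kinase, was lower in C3H (-0.50 ± 0.15, adjusted p = 0.0447).

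Of the members followed in both the strain and the hyperoxia comparison, Iigp1, an immunity-related GTPase, was lower in C3H (11.7 ± 3.2 against 18.5 ± 3.2 FPKM, -0.64 ± 0.14, adjusted p = 0.0122). Irf7, the transcription factor that amplifies type I interferon, was at 9.32 ± 3.02 FPKM in C3H and 13 ± 1.44 FPKM in C57B (adjusted p = 0.0678). Isg15 (27.7 ± 7.8 and 36.6 ± 9.59 FPKM, adjusted p = 0.0814), Oasl2 (19.9 ± 4.94 and 26.2 ± 1.18 FPKM, adjusted p = 0.0717) and Ifit3 (adjusted p = 0.811) were not called either. Irf7 would be called without mouse 2 (-0.50, adjusted p = 0.0466) or mouse 26 (-0.60, adjusted p = 0.0201), Oasl2 without mouse 2 (-0.46, adjusted p = 0.0343), and Isg15 without mouse 3 (-0.48, adjusted p = 0.0397) or mouse 26 (-0.49, adjusted p = 0.0265). Without the C3HM mice 1 and 3, the count of called members was 8, with 1 higher and 7 lower, where 8.78% of all genes were called. Iigp1 (-0.43, adjusted p = 0.0936), Dhx58 (-0.50, adjusted p = 0.138) and Rsad2 (0.46, adjusted p = 0.104) were then not called. Leaving out mouse 14, 15, 25 or 38 gave 10 members, where 8.95% to 9.3% of all genes were called. Dhx58 was not called without mouse 14, 15 or 38 (adjusted p of 0.0504 to 0.0539). Markers of other cells also differed: 5 of 6 B cell genes, 5 of 7 neutrophil genes and 3 of 7 T cell genes were lower in C3H. The summed FPKM of the 6 B cell genes was 21.9 to 73.5 in C3H and 80.7 to 108 in C57B, and that of the 7 T cell genes 25.6 to 49.6 and 52 to 80.9. The part of these cells in the strain differences was not tested.

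**Figure D1:**
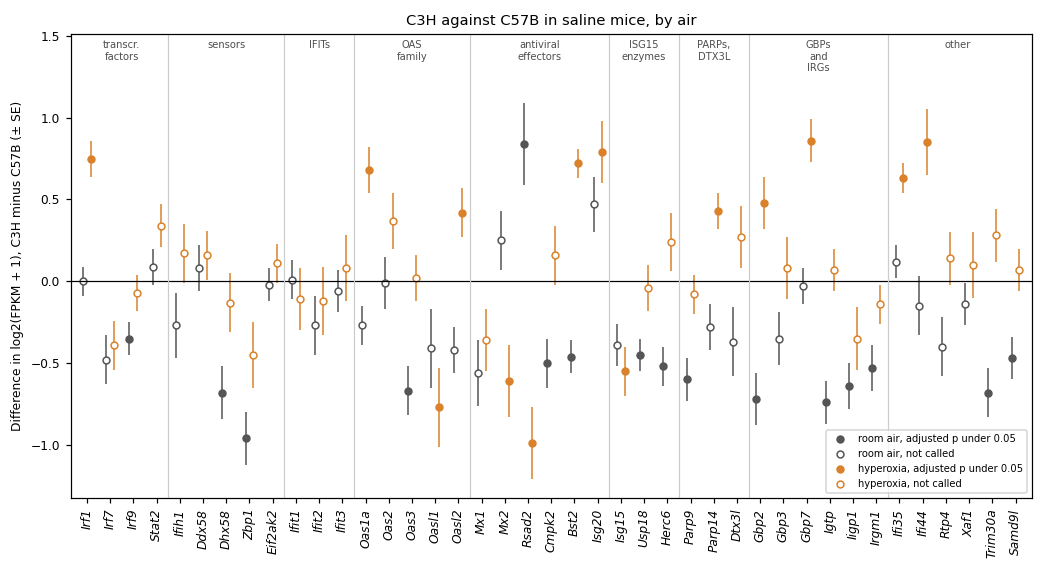
Difference in log2(FPKM + 1) between the strains, C3H minus C57B, for each of the 41 members in saline mice, with its standard error, in room air (6 mice per strain, grey) and in hyperoxia (6 mice per strain, orange). Filled points are called at an adjusted p under 0.05, which in room air are 15 members below 0 and Rsad2 above it, and in hyperoxia 10 above 0 and 4 below it.

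Sex was compared in the same 12 mice, and no member was called in limma, where 0.669% of all genes were called in either direction. At an unadjusted p under 0.05 there were 6 members and 23.3% of all genes. Isg15 came closest, at 0.56 ± 0.13 higher in males than females (adjusted p = 0.0776), and Rsad2 had the largest difference (0.75 ± 0.25, adjusted p = 0.129). For a difference between the strains in the effect of sex, 0 members and 0% of all genes were called in limma, and 10 members and 16.3% of all genes had an unadjusted p under 0.05. The most extreme value was that of Oas1a (-1.05 ± 0.25, adjusted p = 0.142), which was at 2.74, 4.42 and 3.59 FPKM in C3HM, 6.86, 7.69 and 6.11 FPKM in C3HF, 6.03, 6.93 and 7.82 FPKM in C57BM, and 5.02, 5.52 and 6.34 FPKM in C57BF. The 3 C3HM mice lay below the other 9. Both counts rested on mouse 2, a C3HM mouse, since without it 8 members were called for sex (3 higher and 5 lower in males) and 8 for the strain by sex term, all of them lower. In these fits 23.5% and 17.7% of all genes were called, so the members' share was near that of all genes.

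Hyperoxia was compared with room air in the 24 saline mice. Most members fell: 32 of 41 were called lower and 2 higher, where 28.3% of all 16321 genes tested were called lower and 31.8% higher. The median difference, hyperoxia minus room air, was -0.53 over the members and 0.01 over all genes. All 6 guanylate binding proteins and immunity-related GTPases, all 3 genes of the ISG15 pathway, all 3 of Parp9, Parp14 and Dtx3l, and all 4 transcription factors (Irf1, Irf7, Irf9 and Stat2) were called lower. The Oas family followed with 4 of 5 (all but Oasl1), the other antiviral effectors with 4 of 6, the remaining genes Ifi35, Ifi44, Rtp4, Xaf1, Trim30a and Samd9l with 6 of 6, the sensors with 1 of 5 and the Ifit genes with 1 of 3. Oas3 passed the filter mainly through the C57B mice in room air, the group in which it was highest (median 1.73 FPKM), so its call is limited by the filter. The largest falls were those of Rsad2 (-1.63 ± 0.15, adjusted p = 1.98e-08), Gbp7 (-1.61 ± 0.09, adjusted p = 1.25e-11), Isg20 (-1.46 ± 0.14, adjusted p = 1.79e-08), Gbp3 (-1.42 ± 0.14, adjusted p = 3.11e-08) and Cmpk2 (-1.40 ± 0.13, adjusted p = 1.79e-08).

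The members not called lower were mostly sensors and Ifit genes, beside Mx1, Mx2 and Oasl1, and some of their differences were still below 0. Ifih1 (-0.14 ± 0.12), Ddx58 (-0.22 ± 0.10) and Eif2ak2 (-0.14 ± 0.09), which encode the RNA sensors MDA5, RIG-I and PKR, were not called (adjusted p of 0.0797 to 0.334). Ifit2 differed by -0.00 ± 0.15 and Ifit3 by 0.22 ± 0.14 (adjusted p = 0.988 and 0.182), while Ifit1 of the same family was lower (-0.53 ± 0.13, adjusted p = 0.00162). Ifit3 would be called higher without mouse 33 (0.31, adjusted p = 0.0384) or mouse 43 (0.31, adjusted p = 0.0405). The 2 members called higher were Mx2 (0.41 ± 0.16, adjusted p = 0.0318), a GTPase related to the influenza restriction factor Mx1, and Zbp1 (0.35 ± 0.14, adjusted p = 0.0433), and neither was called after scaling by median ratios (adjusted p = 0.0512 and 0.0841). Both calls were also lost without single mice, 10 for Mx2 (2, 7, 8, 14, 20, 21, 25, 33, 39 and 45, adjusted p up to 0.064) and 13 for Zbp1 (3, 8, 9, 13, 14, 20, 21, 25, 27, 31, 39, 43 and 45, adjusted p up to 0.0895). The falls of Irf7 (-0.25 ± 0.11, adjusted p = 0.047) and Iigp1 (-0.32 ± 0.14, adjusted p = 0.0461) were likewise near the threshold. Irf7 was not called without any 1 of 14 mice (2, 3, 7, 9, 14, 15, 19, 26, 32, 33, 38, 39, 43 and 45, adjusted p up to 0.0975). For Iigp1 this held for 14 mice (2, 7, 8, 13 to 15, 19, 25, 26, 32, 33, 37, 38 and 43, adjusted p up to 0.0952).

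The fall was described within each strain. In C57B 31 members were called lower and 1 higher, where 30% of all genes were called lower and 25.5% higher, and the median difference was -0.83 over the members and -0.06 over all genes. In C3H 19 members were called lower and 2 higher, where 12.5% of all genes were called lower and 25.3% higher, and the median difference was -0.21 over the members and 0.10 over all genes. All 19 members that fell in C3H were among the 31 that fell in C57B. Of the other 12, 11 were not called in C3H and Bst2 was called higher there, a difference in calls that is not itself a test. The same overlap was not counted over all genes, so these counts are not read as particular to the members. The value was lower in C57B than in C3H for 36 of the 41 members, as it was for 64.6% of all genes.

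In C57B, Gbp7, a guanylate binding protein, fell from between 11.1 and 14.9 FPKM (median 11.9) to between 1.74 and 2.61 FPKM (median 2.3), with no overlap (-2.05 ± 0.13, adjusted p = 1.22e-10). In C3H it fell from between 10.4 and 15.2 FPKM (median 11.8) to between 3.55 and 6.37 FPKM (median 4.72), again without overlap (-1.16 ± 0.13, adjusted p = 9.27e-07). Gbp3 fell in both strains, from 17.6 ± 2.2 to 5.22 ± 1.95 FPKM in C57B and from 13.9 ± 3.31 to 5.53 ± 1.7 FPKM in C3H. Ifi44, an interferon-induced antiviral gene, fell from 6.5 ± 1.19 to 1.22 ± 0.445 FPKM in C57B (-1.77 ± 0.20, adjusted p = 2.74e-07) and from 5.99 ± 2.46 to 3.04 ± 1.05 FPKM in C3H (-0.77 ± 0.20, adjusted p = 0.00419). Cmpk2 fell from 13 ± 1.9 to 3.43 ± 1.68 FPKM in C57B and from 9.04 ± 2.19 to 3.86 ± 1.2 FPKM in C3H. Isg20 fell from 54.3 ± 12.2 to 17.2 ± 5.36 FPKM in C57B and from 77.9 ± 31.1 to 30.7 ± 10.4 FPKM in C3H.

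Rsad2 fell most in C3H. After hyperoxia the C3HM mice were at 1.35, 2.31 and 0.999 FPKM and the C3HF mice at 1.42, 1.33 and 1.54 FPKM, all below the 8.46 to 30.9 FPKM of room air (-2.54 ± 0.22, adjusted p = 3.18e-08). The C57BM mice were at 3.26, 4.93 and 4.24 FPKM, below the 10.7 to 12 FPKM of C57BM in room air. The C57BF mice were at 2.84, 4.48 and 3.92 FPKM and overlapped the 3.89 to 4.63 FPKM of C57BF in room air. Over both sexes the fall in C57B was -0.72 ± 0.22 (adjusted p = 0.0083).

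Of the 6 members followed in both the strain and the hyperoxia comparison, Gbp2 fell from 34.8 ± 1.92 to 10.6 ± 2.35 FPKM in C57B and from 21.5 ± 5.64 to 15.1 ± 2.65 FPKM in C3H. Oasl2, of the oligoadenylate synthetase-like proteins, fell in C57B (26.2 ± 1.18 to 14 ± 3.29 FPKM, adjusted p = 3.57e-05) and was at 19.9 ± 4.94 and 18.8 ± 2.74 FPKM in C3H (adjusted p = 0.799). Isg15 fell in both strains, from 36.6 ± 9.59 to 26.3 ± 7.64 FPKM in C57B and from 27.7 ± 7.8 to 17.4 ± 3.63 FPKM in C3H (adjusted p = 0.0137 and 0.0034). Iigp1 was at 18.5 ± 3.2 and 13.5 ± 4.35 FPKM in C57B (adjusted p = 0.0444) and at 11.7 ± 3.2 and 10.1 ± 2.29 FPKM in C3H (adjusted p = 0.499). Irf7 was not called in either strain alone (adjusted p = 0.0986 in C57B and 0.302 in C3H), and neither was Ifit3 (adjusted p = 0.528 and 0.271). Ifit3 was at 42 ± 14.5 FPKM in C57B and 43.2 ± 11.3 FPKM in C3H after hyperoxia. Mx2 rose in C57B, from 1.09 ± 0.326 to 3.17 ± 2.22 FPKM (0.84 ± 0.22, adjusted p = 0.00346), with the highest values of 6 and 5.91 FPKM in C57BM mice. The 2 members called higher in C3H were Zbp1 (0.60 ± 0.20, adjusted p = 0.0248) and Bst2 (0.26 ± 0.09, adjusted p = 0.032). Neither was called in C3H after quantile normalization (adjusted p = 0.0774 and 0.398) or median ratio scaling (adjusted p = 0.0799 and 0.505). The call of Zbp1 in C3H was lost without mouse 3, 8, 9, 27 or 31 (adjusted p up to 0.0791), and that of Bst2 without mouse 1, 2, 7, 9, 25, 27, 31 or 33 (adjusted p up to 0.0817).

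**Figure D2:**
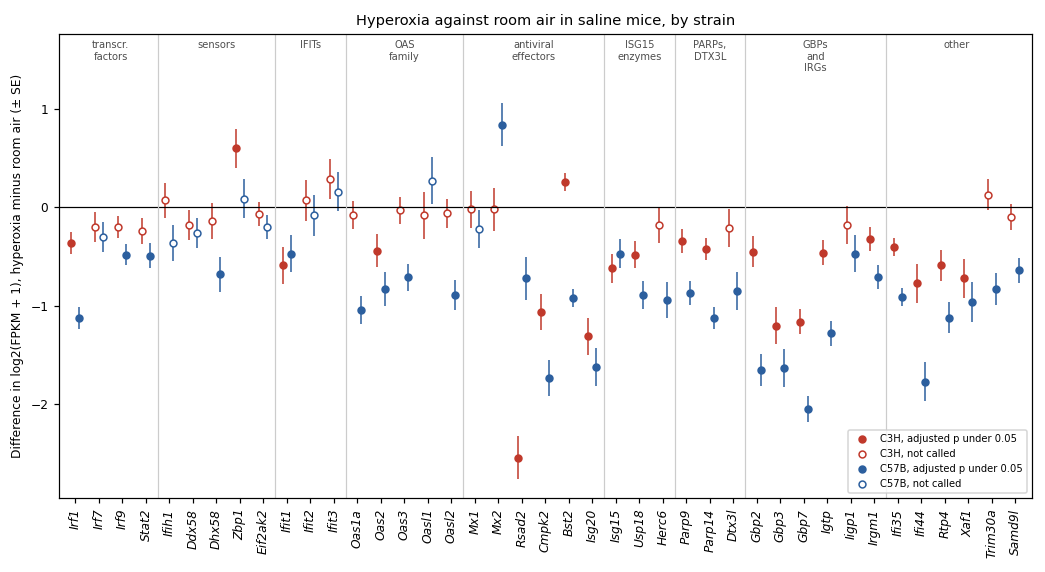
Difference in log2(FPKM + 1) between hyperoxia and room air for each of the 41 members in saline mice, with its standard error, in C3H (red) and C57B (blue), 6 mice per strain and air. Filled points are called at an adjusted p under 0.05; the blue points lie below the red ones for 36 members, where 64.6% of all genes lie the same way, while Rsad2 lies lowest in C3H at -2.54.

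The effect of hyperoxia differed between the strains for 13 members in the test of the difference itself. It was higher (a smaller fall, or a rise) in C3H than in C57B for 12 members and lower for 1, where 8.71% of all genes were called higher and 2.81% lower, and the median was 0.44 over the members and 0.15 over all genes. With median ratio scaling, which brings the median of all genes to 0.00, the counts were 9 and 2. The shares of all genes called in that fit are not given here, and those above belong to the unscaled fit. The 12 members were Gbp2 (1.20 ± 0.23, adjusted p = 0.0027), Bst2 (1.18 ± 0.13, adjusted p = 1.93e-05), Ifi44 (1.00 ± 0.28, adjusted p = 0.0237), Trim30a (0.96 ± 0.23, adjusted p = 0.0102), Oas1a (0.95 ± 0.20, adjusted p = 0.00575), and Gbp7, Oasl2, Igtp, Irf1, Parp14, Oas3 and Ifi35 at 0.51 to 0.89. Of these 12, 5 were among the members lower in C3H in room air, and the room air mice enter both comparisons. This overlap was not counted over all genes, so it is not read as particular to the members. Oas3 again passed the filter mainly through C57B in room air (median 1.73 FPKM), where it was highest. In hyperoxia it was at most 0.759 FPKM in C57B and 1.25 FPKM in C3H. Ifi44 was not called after quantile normalization (0.70, adjusted p = 0.119), and neither Ifi44 nor Trim30a was called without the C3HM mice 1 and 3 (adjusted p = 0.0787 and 0.0597). That setting gave 10 called members, and the share of all genes called in it is not given here. Without mouse 2 the count was 22, with 20 higher and 2 lower, where 19.9% of all genes were called in either direction.

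Bst2 had the smallest adjusted p of the members in this test. In C3H it was between 101 and 148 FPKM in room air, with a median of 109, and between 113 and 159 FPKM in hyperoxia, with a median of 138, a rise that was not called after either scaling. In C57B it fell from between 142 and 181 FPKM (median 150) to between 69.4 and 98.8 FPKM (median 80.5), with no overlap (-0.92 ± 0.09, adjusted p = 9.23e-08). Irf1 fell from 52.2 ± 5.14 to 23.7 ± 3.74 FPKM in C57B and from 52 ± 2.88 to 40.5 ± 5.92 FPKM in C3H (difference of the falls 0.75 ± 0.15, adjusted p = 0.00445). Oas1a fell in C57B from 6.28 ± 1.01 to 2.59 ± 0.764 FPKM and was at 5.24 ± 1.95 and 4.69 ± 0.932 FPKM in C3H. Rsad2 was the member whose fall was larger in C3H (-1.83 ± 0.31, adjusted p = 0.00099). No member was called for a difference between males and females in the effect of hyperoxia, where 0.0368% of all genes were called. At an unadjusted p under 0.05 there were 5 members and 18.2% of all genes. The smallest adjusted p of a member was that of Usp18, at 0.162, and without mouse 19, a C57BM mouse, 2 members and 6.45% of all genes were called.

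**Figure D3:**
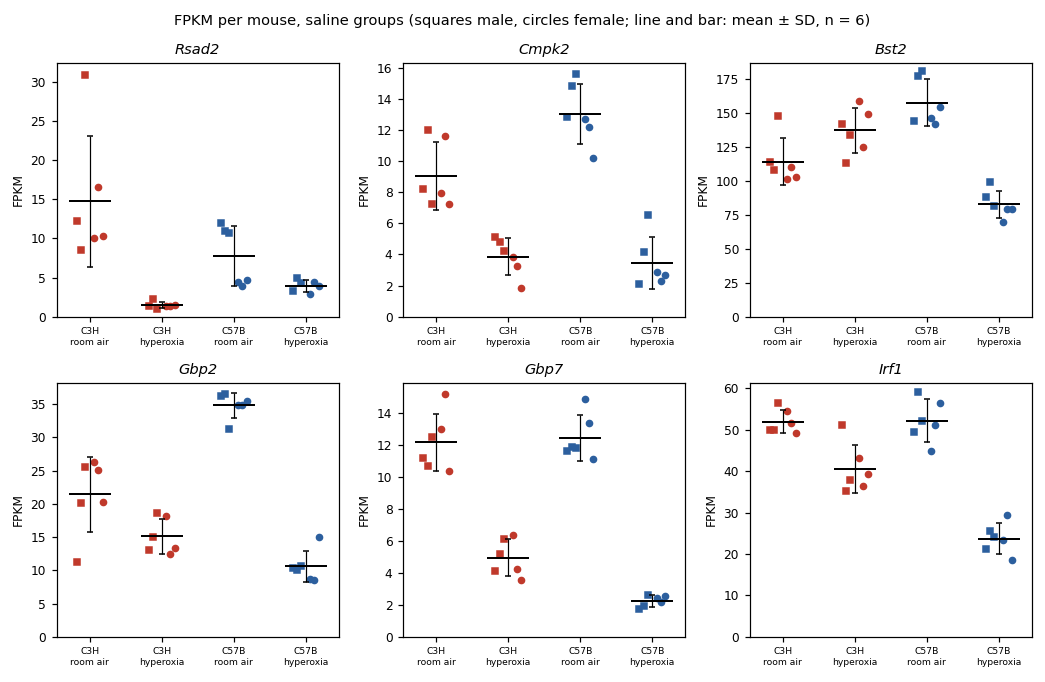
FPKM of 6 members in each of the 24 saline mice, by strain and air, from 0 upward on a linear axis; squares are males, circles females, and the line with its bar is the mean ± SD of 6 mice. Bst2 was at 142 to 181 FPKM in C57B in room air and at 69.4 to 98.8 FPKM in hyperoxia, while in C3H its ranges overlapped; Rsad2 in C3H was at 0.999 to 2.31 FPKM in hyperoxia.

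After hyperoxia the order of the strains was mixed. C3H was higher than C57B for 10 members and lower for 4, where 16.1% of all genes were called higher and 11.1% lower. The largest differences among members higher in C3H were those of Gbp7 (0.86 ± 0.13, adjusted p = 4.92e-05), Ifi44 (0.85 ± 0.20, adjusted p = 0.00272), Isg20 (0.79 ± 0.19, adjusted p = 0.0046), Irf1 (0.75 ± 0.11, adjusted p = 3.62e-05) and Bst2 (0.72 ± 0.09, adjusted p = 1.03e-05). Gbp2, which was lower in C3H in room air, was higher in C3H in hyperoxia (0.48 ± 0.16, adjusted p = 0.0316). Rsad2, with the largest difference in either direction, showed the reverse order, higher in C3H in room air and lower in hyperoxia (-0.99 ± 0.22, adjusted p = 0.00183). The other members lower in C3H in hyperoxia were Oasl1 (-0.77 ± 0.24, adjusted p = 0.0208), Mx2 (-0.61 ± 0.22, adjusted p = 0.047) and Isg15 (-0.55 ± 0.15, adjusted p = 0.0113). Oasl1 was not called without mouse 7, 31, 32 or 43 (adjusted p up to 0.0613). Mx2 was not called without mouse 1, 9, 13 to 15, 20, 21, 25 to 27, 31, 32, 37 to 39, 44 or 45 (adjusted p up to 0.141).

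Other genes of the pathway were taken from lists of ligands, receptors, kinases and further interferon-stimulated genes. Of 21 interferon genes, none reached the filter in any comparison: 16 were listed at 0 in all 48 mice, Ifng reached 0.804 FPKM with a median of 0.149, and Ifnb1, Ifna11, Ifnk and Ifnz reached 0.332, 0.480, 0.302 and 0.160 FPKM with a median of 0. Changes in the ligands could therefore not be tested at these levels. Among 6 receptor genes, 2 were called lower in hyperoxia and none higher, where 28.3% of all genes were called lower and 31.8% higher. The 2 were Il10rb (-0.32 ± 0.05, adjusted p = 5.93e-06), a chain of the type III receptor, and Ifnar2 (-0.20 ± 0.08, adjusted p = 0.0312). Ifnar1 (-0.11 ± 0.07, adjusted p = 0.18), Ifngr1 (0.02 ± 0.07, adjusted p = 0.816), Ifngr2 (-0.09 ± 0.06, adjusted p = 0.21) and Ifnlr1 (0.13 ± 0.12, adjusted p = 0.371) were not called over both strains. Ifngr2, the signalling chain of the type II receptor, was lower in C3H in room air (20 ± 1.61 against 28.9 ± 2.36 FPKM, adjusted p = 0.00345).

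The counts of the next lists stand beside 31.8% of all genes called higher in hyperoxia and 28.3% called lower. In the list of kinases and other regulators 3 genes rose and 4 fell in hyperoxia of 8 tested. Stat3, the factor of the IL-6 response, rose (1.18 ± 0.08, adjusted p = 1.03e-10), as did Jak1 (0.41 ± 0.08, adjusted p = 0.000323), while Tyk2 fell (-0.44 ± 0.08, adjusted p = 0.000156). Of 7 inhibitors of the pathway 4 rose and 2 fell. These included Socs3 (2.20 ± 0.26, adjusted p = 4.61e-07), Ptpn11 (1.06 ± 0.10, adjusted p = 4.11e-08), and Ptpn2 (0.89 ± 0.12, adjusted p = 1.53e-06). Of 11 further sensors and adaptors tested 4 rose and 1 fell, among them Myd88 (0.91 ± 0.11, adjusted p = 8.09e-07), Tmem173, which encodes STING (0.71 ± 0.10, adjusted p = 5.71e-06), and Tlr3 (-0.67 ± 0.10, adjusted p = 6.67e-06).

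Further interferon-stimulated genes outside the 41 also mostly fell in hyperoxia. This list was chosen with earlier results of these data known, so it is no independent check. Of 35 rows tested, 24 fell and 3 rose, with a median of -0.64, where 28.3% of all genes were called lower and 31.8% higher. The smallest adjusted p belonged to Uba7, the E1 enzyme that charges ISG15 (-1.73 ± 0.12, adjusted p = 2.92e-10), to Ube2l6, its E2 enzyme (-1.82 ± 0.15, adjusted p = 3.18e-09), and to a row of Gbp6 (-1.31 ± 0.10, adjusted p = 2.13e-09). In room air 12 of the 35 were lower in C3H, where 7.87% of all genes were. The effect of hyperoxia was higher in C3H than in C57B for 15 of the 35 and lower for none, against 8.71% and 2.81% of all genes.

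Markers of other cells moved with hyperoxia in the same lungs, where 28.3% of all genes were called lower and 31.8% higher. All 7 NK cell genes, 6 of 7 T cell genes, 5 of 6 B cell genes and 3 of 4 tested genes of plasmacytoid dendritic cells, the cells best known for type I interferon release, were lower, with medians of -0.99, -0.80, -1.21 and -0.40. All 7 neutrophil genes were higher over both strains (median 1.44), with 5 called in C57B and 2 in C3H, as were 6 of 7 alveolar macrophage genes (median 0.74). Of 9 rows of monocyte and recruited macrophage genes 4 were higher and 3 lower (median 0.21). Of 8 genes of lung epithelium and endothelium 2 were higher and 4 lower (median -0.46), and their summed FPKM had a median of 148000 in room air and 21800 in hyperoxia in C57B and of 126000 and 41800 in C3H. This sum follows mostly Scgb1a1 and Sftpc, with medians of 48600 and 17900 FPKM over all mice, against 193 for Pecam1 and 214 for Cdh5. It is thus no measure of epithelium and endothelium as a whole. The summed FPKM of the 7 NK cell genes went from 61.8 to 126 in room air to 7.79 to 19.8 in hyperoxia in C57B, and from 43.2 to 118 to 24.8 to 49.2 in C3H. That of the T cell genes went from 52 to 80.9 to 12.9 to 32.1 in C57B and from 25.6 to 49.6 to 25 to 43.6 in C3H. That of the neutrophil genes went from 181 to 778 (median 463) to 165 to 4930 (median 3100) in C57B, and from 135 to 314 (median 190) to 181 to 6340 (median 208) in C3H. The list for plasmacytoid dendritic cells holds Bst2, which is itself a member called lower. Without it the summed FPKM in C57B was 63.7 to 86.0 in room air and 39.9 to 56.4 in hyperoxia. In C3H it was 40.7 to 79.4 and 36.8 to 54.3, in turn. Siglech, the defining gene of plasmacytoid dendritic cells, had a median of 0.562 FPKM and was at 0 in some lungs. The effect of hyperoxia was higher in C3H than in C57B for 5 of 7 T cell, 4 of 6 B cell and 2 of 7 NK cell genes, and for 8.71% of all genes. The part of these cells in the falls of the members was not tested.

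ATG was compared with saline in the 24 mice in room air and, separately, in the 24 mice in hyperoxia. In room air no member and 0.0185% of all genes were called in limma, and 4 members and 6.64% of all genes had an unadjusted p under 0.05. The smallest adjusted p of a member was 0.612, and no member was called in any of the fits with 1 mouse left out. In hyperoxia 9 of the 41 members were called higher with ATG and none lower, where 3.89% of all genes were called higher and 1.58% lower. The difference was above 0 for 40 of the 41 members, as for 63.2% of all genes, and the median was 0.26 over the members and 0.05 over all genes. The saline mice in hyperoxia enter both this comparison and that of hyperoxia with room air.

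The largest rises with ATG in hyperoxia were those of Iigp1 (0.67 ± 0.14, adjusted p = 0.0113), Isg15 (0.65 ± 0.13, adjusted p = 0.011), Zbp1 (0.61 ± 0.15, adjusted p = 0.0265), Oas1a (0.53 ± 0.13, adjusted p = 0.0218) and Usp18 (0.44 ± 0.11, adjusted p = 0.0265), which encodes the protease that removes ISG15. The other 4 were Rtp4, Igtp, Irf9 and Ifi35, at 0.22 to 0.35. Iigp1 with saline was at 10.2, 9.25 and 11.1 FPKM in C3HM and at 14, 8.7 and 7.46 FPKM in C3HF. With ATG it was at 32.9, 24.5 and 33 FPKM in C3HM and at 15.7, 10.9 and 20.2 FPKM in C3HF. In C3HM the groups did not overlap, and in C3HF they did. In C57B Iigp1 was at 13.5 ± 4.35 FPKM with saline and 16.6 ± 3.06 FPKM with ATG, with overlapping ranges.

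Isg15 in C3H was between 13.1 and 23.1 FPKM with saline (median 17) and between 18.8 and 39.1 FPKM with ATG (median 36.4), and in C57B between 18.7 and 37.8 FPKM (median 22.6) and between 22.4 and 62.9 FPKM (median 36.1). Zbp1 in C3H was at 9.03 ± 3.52 FPKM with saline and 18.3 ± 5.32 FPKM with ATG, and in C57B at 12.5 ± 3.37 and 14.9 ± 2.49 FPKM. Oas1a was at 4.69 ± 0.932 and 7.91 ± 1.2 FPKM in C3H, where every ATG mouse lay above every saline mouse, and at 2.59 ± 0.764 and 3.81 ± 1.35 FPKM in C57B. Usp18 was at 9.29 ± 3.04 and 11.3 ± 2.13 FPKM in C3H and at 9.36 ± 2.31 and 14.5 ± 3.25 FPKM in C57B. Ifit3, which was not called, was lower with ATG in C3H (43.2 ± 11.3 and 30.8 ± 6.75 FPKM) and higher in C57B (42 ± 14.5 and 55.9 ± 14.3 FPKM). Whether the effect of ATG differed between the strains was not tested. The count of 9 rested on few mice, as it was 3 without mouse 24 or 36, 4 without mouse 10 or 23, and 5 without mouse 7, 12 or 32. In these fits 2.8% to 4.04% of all genes were called. Zbp1 was not called without mouse 10, 24 or 36 (adjusted p up to 0.0551), nor Usp18 without mouse 23, 24, 36 or 45 (adjusted p up to 0.0547).

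The effect of ATG differed between hyperoxia and room air for 2 members in the fit of all 48 mice, Isg15 (0.69 ± 0.17, adjusted p = 0.0197) and Iigp1 (0.64 ± 0.17, adjusted p = 0.033). Over all 16994 genes 1.56% were called higher and 1.21% lower. In room air, with saline and ATG in turn, Isg15 was at 27.7 ± 7.8 and 27.8 ± 4.28 FPKM in C3H and at 36.6 ± 9.59 and 32.9 ± 5.55 FPKM in C57B. Iigp1 was at 11.7 ± 3.2 and 14.2 ± 4.22 FPKM in C3H and at 18.5 ± 3.2 and 16 ± 1.47 FPKM in C57B. The call of Iigp1 was lost without mouse 8, 14, 24, 28, 36, 37 or 42 (adjusted p up to 0.0583), and without each of these but mouse 28 a single member was called. Without mouse 2, 6, 22, 31, 35, 40 or 45 there were 4. Beyond the members, Cxcl10, a chemokine induced by interferons, rose with ATG in hyperoxia (1.10 ± 0.29, adjusted p = 0.0335), as did Gbp5 (0.49 ± 0.10, adjusted p = 0.0109) and Tgtp1 (0.44 ± 0.10, adjusted p = 0.0212), among 6 of 36 rows. Over all genes 3.89% were called higher with ATG in hyperoxia. Of the marker lists, 3 of 7 alveolar macrophage genes were lower with ATG in hyperoxia, where 1.58% of all genes were called lower. None of the T, B or NK cell genes was called. The summed FPKM of the alveolar macrophage genes in hyperoxia was 121 to 480 with ATG and 299 to 862 with saline in C3H. In C57B it was 698 to 1720 and 775 to 1840, in turn. Chil3 had the highest median in this list, 260 FPKM over all mice, against 78.1 for Ear2, the next. The part of these cells was not tested.

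**Figure D4:**
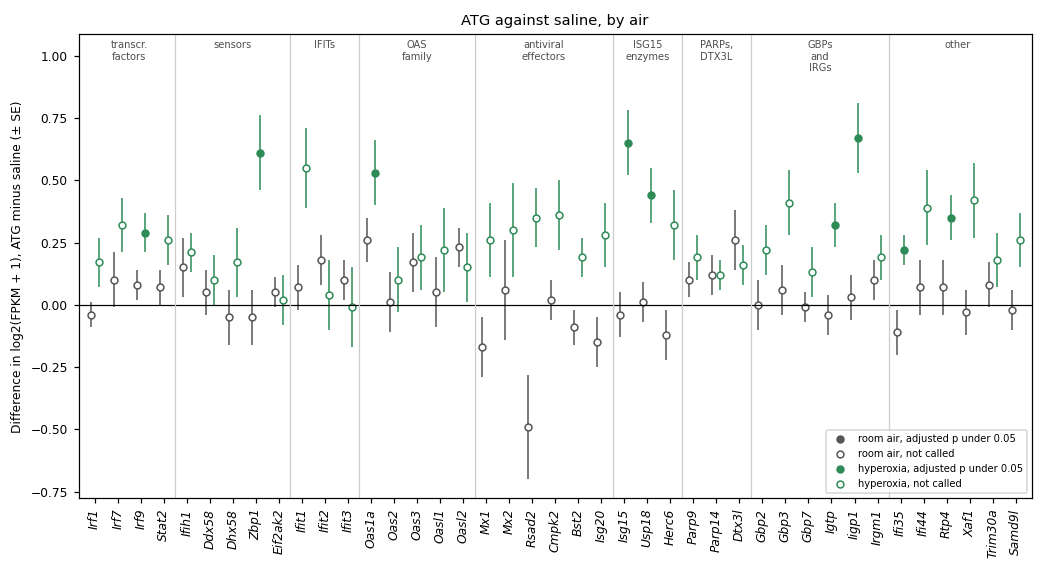
Difference in log2(FPKM + 1) between ATG and saline for each of the 41 members, with its standard error, in room air (24 mice, grey) and in hyperoxia (24 mice, green). Filled points are called at an adjusted p under 0.05, which are 9 members in hyperoxia and none in room air; 40 of the 41 green points lie above 0.

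**Figure D5:**
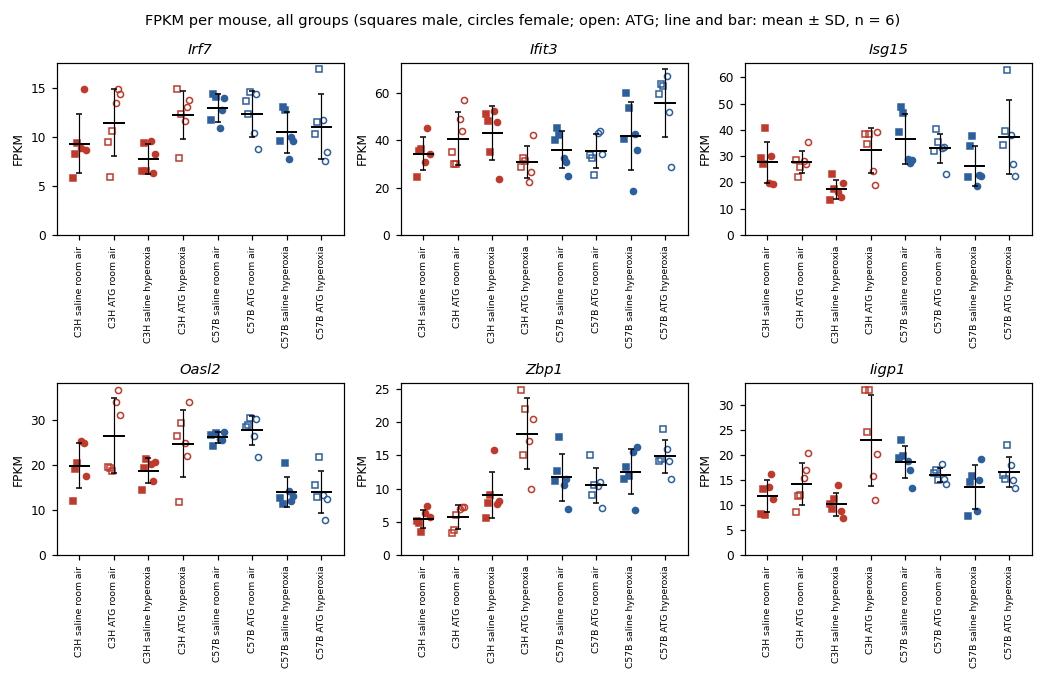
FPKM of 6 members in all 48 mice, by strain, injection and air, from 0 upward on a linear axis; squares are males, circles females, open symbols ATG, and the line with its bar is the mean ± SD of 6 mice. Iigp1 reaches 32.9 and 33 FPKM in C3HM mice given ATG in hyperoxia, and Ifit3 varies from 18.5 to 60 FPKM within the C57B mice given saline in hyperoxia.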

How the data were processed

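RNA of whole lungs from 48 mice was measured by sequencing, with 3 mice in each of 16 groups defined by the sample labels. Reads were aligned to mm10 by the authors using gSNAP, and FPKM were derived with Cufflinks (the submitters' processing notes also name SAMtools). The deposited FPKM values are scaled to mapped fragments and gene length. The annotation and the handling of reads with several matches are not given in the sources used here. Reads of C3H mice were mapped to a genome of the C57Bl/6 strain. The depth is unknown, so precision rests on how far the mice of a group lie apart. Akap5, with 7 failed estimates, was left out. Irf8 and Siglec5 were not analysed here.

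The model was limma 3.58.1 (R 4.3.3) on log2(FPKM + 1), with group means, contrasts and eBayes with trend. It used the mice of the groups compared and genes that reached an FPKM of 1 in 3 or more of them. Benjamini-Hochberg adjustment covered all genes tested, with a threshold of 0.05. Differences on this scale understate the change of low genes. The fit was tested on simulated data. The members and lists were chosen with earlier results of these data known. In each comparison up to 5 rises and 5 falls among called members are named. Irf7, Ifit3, Isg15, Oasl2, Gbp2 and Iigp1 are given in the strain and hyperoxia comparisons whatever they show. For other genes of the pathway, ligands, receptors and up to 3 more per list by adjusted p are named. Exceptions are members named to complete a group or to show an overlap, Cxcl10, and Ifit3 with ATG, which were named after their values were seen. Alternatives were a pseudocount of 0.1, an FPKM filter of 0.1 in 3 mice or none, quantile normalization, median ratio scaling, eBayes without trend, a fit of all 48 mice, leaving out the C3HM mice 1 and 3, and leaving out each mouse. Promoters were searched with Python 3.11.15.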

Additional observations from a re-analysis of the deposited data

Results flagged for a closer look

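Members whose response to hyperoxia differed between the strains, by the test of the difference itself (C3H minus C57B, on the log2 scale), were Bst2 at 1.18, Gbp2 at 1.20, Ifi44 at 1.00, Trim30a at 0.96, Oas1a at 0.95, Gbp7 at 0.89, Oasl2 at 0.83, Igtp at 0.82, Irf1 at 0.75, Parp14 at 0.71, Oas3 at 0.68, Ifi35 at 0.51 and Rsad2 at -1.83. Among these, Oas3 passed the filter mainly through C57B in room air, where it was highest. The effect of ATG differed between hyperoxia and room air for Isg15, at 0.69, and Iigp1, at 0.64.

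Single mice stood far from the others of their group of 6 in 4 of 56 Dixon's ratios, computed for the mean over the members and for 6 members in each of 8 groups, at the 95% critical value, which chance passes in about 1 of 20 groups. Among C57B mice given ATG in room air, C57BF 42 had a mean log2(FPKM + 1) over the members of 3.55, against 3.72 to 3.82 in the other mice. Among C57B mice given saline in hyperoxia, Oasl2 was at 20.4 FPKM in C57BM 21, against 11.3 to 14.2 FPKM, and Gbp2 at 15.0 FPKM in C57BF 45, against 8.6 to 10.7 FPKM. Among C57B mice given saline in room air, Gbp2 was at 31.2 FPKM in C57BM 15, against 34.8 to 36.5 FPKM.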

How the results depend on the processing

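No paired analysis was possible because each mouse has its own number. Under the alternatives, 338 counts of called members stayed within 1.5 times the value reported and 32 did not. Without the C3HM mice 1 and 3 the count for strain was 8 in place of 16. The fit of all 48 mice gave 2 members for sex and 2 for strain by sex in place of 0, and no filter gave 1 for ATG by air in place of 2. In these fits 11.3%, 4.4% and 1.15% of all genes were called, in turn. Leaving out 1 mouse gave 10 to 24 members for strain, 0 to 8 for sex, 0 to 8 for strain by sex, 12 to 22 for hyperoxia by strain, 0 to 2 for hyperoxia by sex, 3 to 12 for ATG in hyperoxia and 1 to 4 for ATG by air. The share of all genes called moved as well. It was 23.5% with 8 members for sex, 17.7% with 8 for strain by sex, and 19.9% with 22 for hyperoxia by strain. It was 6.45% with 2 for hyperoxia by sex, 2.8% and 2.85% with 3 for ATG in hyperoxia, and 2.01% to 6.44% with 4 for ATG by air. With 10 members for strain it was 8.95% to 9.3%. The share beside 24 for strain and 12 for ATG in hyperoxia is not given here. These highest counts are therefore not read as particular to the members. For the members named, 1640 values kept their direction and side of the threshold, 146 fell short of it and 8 passed it. The strain difference of Ifit3 (-0.06) reversed to 0.05 with median ratio scaling, 0.02 without the C3HM mice 1 and 3 and 0.03 without C3HM 1, and leaving out 1 mouse gave -0.14 to 0.03. Quantile normalization moved the median of all genes for strain from -0.10 to 0.02, and for hyperoxia by strain from 0.15 to -0.01. The causes were not tested. Low members such as Mx1 and Oas3 are limited by an unknown depth.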
